A study of Homo sapiens with 18 samples.

Results

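BL-41 and Namalwa are established cell lines from Burkitt lymphoma, a germinal-centre B cell tumour, and their gene expression was set side by side in the arms that received a scrambled, non-targeting shRNA. The comparison covers 3 BL-41 and 3 Namalwa RNA-seq libraries, 6 of the 18 in the series. The other libraries are the FOXO3 shRNA arms of both lines and both arms of Jiyoye, another Burkitt line, which is used here only for orientation. In BL-41 scrambled and Namalwa scrambled cells the shRNA came from the same TagRFP lentiviral vector, transduced cells were sorted on day 4, and poly(A) RNA was selected with oligo dT, so both groups share the virus, the sort and the culture medium. The labels say that each arm was made in triplicate and do not say whether the triplicates were separate cultures. Each line derives from the tumour of 1 patient, so a difference between the lines is one between these cell lines. From general knowledge of the lines, BL-41 carries no Epstein-Barr virus (EBV), and Namalwa and Jiyoye do.

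The members are the genes that have a row in both lines' tables. The BL-41 table has 16001 genes and that of Namalwa 15365, and 14789 are in both. The deposited tables hold 1 value for each arm, not 1 for each library. Each scrambled column was scaled to a sum of 1000000 over its own table, a unit called CPM here, and log2 values were then compared as BL-41 over Namalwa, so a positive difference means higher in BL-41. With 1 value a line, differences are described by their size, with no p-value and no SD. The column sums were 17780991 normalised counts in BL-41 and 18108430 in Namalwa, and 11504 genes had a mean over the lines of at least 1 CPM. An approximate standard error of a difference, worked out from the authors' deposited table of FOXO3 knockdown fold changes on the assumption that both arms of a line vary alike, had a median of 0.14 on the log2 scale over the 9158 genes with a mean of at least 10 CPM. The median size of the difference among those genes was 0.43. The standard error is not reliable where a gene was almost absent from 1 line. GYPC, at 0.00891 CPM in Namalwa, had 0.13, which is likely too small.

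Burkitt lymphoma cells carry a chromosomal translocation that places MYC beside an immunoglobulin enhancer, and they keep the surface receptors and transcription factors of the dark zone of the germinal centre. EBV-infected B cells can switch on NF-kB targets, and cells that sense viral nucleic acid or interferon switch on a set of interferon-stimulated genes. In that pathway interferon binds its receptor, JAK kinases phosphorylate STAT proteins, and these join IRF9 to bind a short DNA element, the interferon-stimulated response element, in the promoters of the genes they activate.

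FOXO3, the transcription factor that the study knocked down, was at 53.1 CPM in BL-41 and 46.97 in Namalwa, a log2 difference of 0.18 with an approximate standard error of 0.15. In the FOXO3 shRNA arms it was lower than in the scrambled arms of its own line, by a log2 fold change of -0.79 in BL-41 and -1.09 in Namalwa according to the authors' deposited table.

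Over the 11504 genes the median log2 difference was -0.01 and the middle 50% ran between -0.50 and 0.48. At least 2-fold apart were 2752 genes, 23.9% of those compared. Of them 1455 (12.6%) were higher in BL-41 and 1297 (11.3%) were higher in Namalwa. At least 4-fold apart were 1100 genes (9.56%), of which 678 (5.89%) were higher in BL-41 and 422 (3.67%) in Namalwa. Genes near the lower limit that passed through the line in which they are high had to differ, so these shares describe the genes compared and are no estimate for weakly expressed genes.

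The FOXO3 shRNA arms of the same lines give the same comparison in other libraries. Of the 1455 genes higher in BL-41, 1194 (82.1%) were also at least 2-fold higher there, and 12 had the opposite sign. Of the 1297 genes higher in Namalwa, 1071 (82.6%) were also at least 2-fold apart that way, and 13 had the opposite sign. Both arms of a line come from 1 deposited table and their ratio equals its fitted fold change, so they are not independent. Genes almost absent from a line have nearly the same value in both of its arms. GYPC in Namalwa was at 0.00891 CPM with scrambled shRNA and 0.00916 CPM with FOXO3 shRNA. The agreement between the arms is therefore no separate test.

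**Figure D1:**
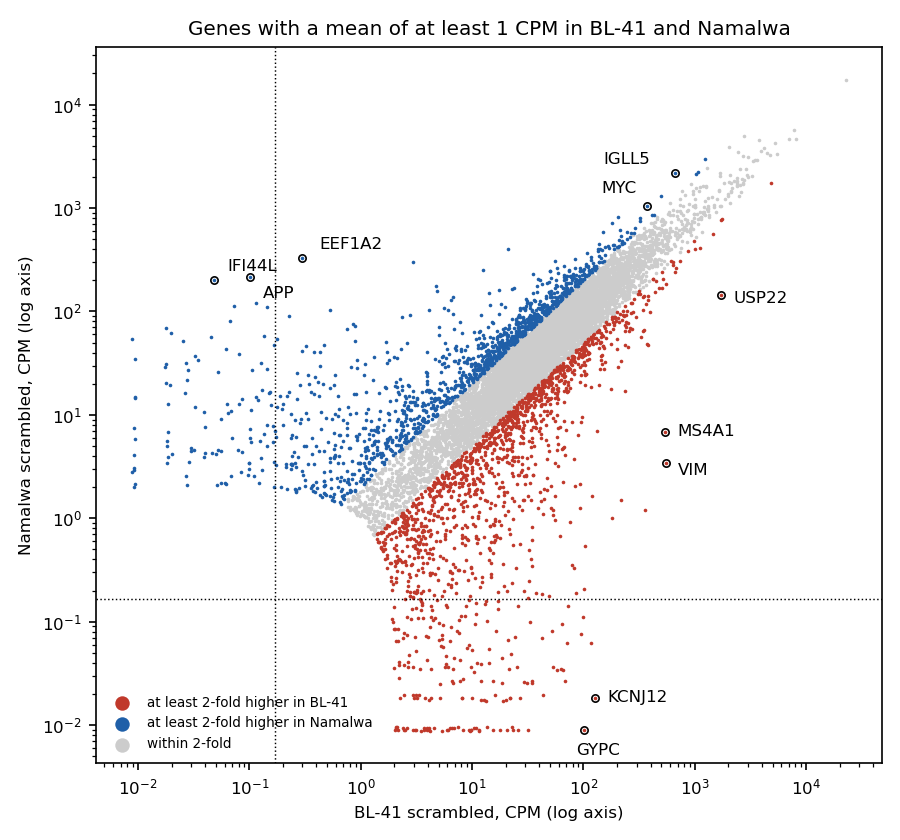
CPM in BL-41 (horizontal, log axis) and in Namalwa (vertical, log axis), 1 point a gene, for the genes with a mean of at least 1 CPM; colours mark the 1455 genes at least 2-fold higher in BL-41, the 1297 at least 2-fold higher in Namalwa and those within 2-fold. Dotted lines mark 3 normalised counts a library, and Y-linked genes and XIST are not drawn. GYPC and KCNJ12 lie at the bottom right and IFI44L, APP and EEF1A2 at the top left, each close to or beyond a dotted line in 1 of the lines.

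Interferon-stimulated genes were mostly lower in BL-41 than in Namalwa. Of 50 measured list members, 27 were at least 2-fold higher in Namalwa and 3 at least 2-fold higher in BL-41, and the median log2 difference was -1.19, against -0.01 over all genes. In all 60.0% of the list was at least 2-fold apart, against 23.9% of all genes. In the FOXO3 shRNA arms the median was -1.22. In RNA from a whole culture, fewer expressing cells and less RNA per cell cannot be told apart. The summed level of the list was 1900 CPM in BL-41, 3393 CPM in Namalwa and 1582 CPM in Jiyoye.

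The largest differences were in genes that BL-41 hardly expressed. A value under 3 normalised counts a library, 0.169 CPM in BL-41 and 0.166 in Namalwa, was raised to that floor before a fold was taken, and such folds are lower bounds. IFI44L, an interferon-induced gene of the IFI44 family (chromosome 1, positions 78620448 to 78646145), had 0.0486 CPM in BL-41 and 202 in Namalwa, at least 1199-fold lower in BL-41. Its neighbour IFI44 had 0.0324 CPM in BL-41 and 37.2 in Namalwa, at least 221-fold lower in BL-41. Both were also low in Jiyoye, at 0.161 and 0.0909 CPM. PARP14, a mono-ADP-ribosyltransferase of the antiviral response (chromosome 3, positions 122680839 to 122730840), had 0.229 CPM in BL-41 and 89.4 in Namalwa, a log2 difference of -8.61. Jiyoye had 67.7 CPM of PARP14, so for this gene BL-41 alone of the 3 lines was low.

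IFIT3 and IFIT1 encode antiviral proteins of the same family and lie near each other on chromosome 10. IFIT3 had 0.296 CPM in BL-41 and 41.9 in Namalwa, and IFIT1 had 0.195 CPM in BL-41 and 11.3 in Namalwa. IFI27 had 0.103 CPM in BL-41 and 11.1 in Namalwa, at least 65.6-fold lower in BL-41. All 5 genes named by the size of their difference in this list (IFI44L, PARP14, IFI44, IFIT3 and IFI27) were thus lower in BL-41. The genes in the rest of the text that are not among the 12 largest differences in a direction or the 5 largest of a list were chosen after their values were seen.

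MX1, the dynamin-like GTPase that traps viral nucleocapsids, had 6.67 CPM in BL-41 and 139 in Namalwa. OAS1 and OAS2, which make the oligoadenylate messenger that activates RNase L, had 9.01 and 58.1 CPM in BL-41 and 45.9 and 261 in Namalwa. ISG15, a ubiquitin-like modifier, had 10.3 CPM in BL-41 and 35.7 in Namalwa, and USP18, the protease that removes it, had 0.529 CPM in BL-41 and 18.1 in Namalwa. The members higher in BL-41 by at least 2-fold were GBP5, APOL6 and APOL3, with log2 differences of 1.82, 1.45 and 1.00. GBP5 is a guanylate-binding protein and the other 2 are apolipoproteins L, genes that respond strongly to interferon gamma as well.

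Genes that carry the interferon signal differed in both directions. IRF9, the DNA-binding partner of the STATs, had 12.4 CPM in BL-41 and 48.9 in Namalwa, a log2 difference of -1.97 ± 0.14 (approximate standard error). STAT2 had 49.95 CPM in BL-41 and 55.2 in Namalwa, within 2-fold. IFNAR2, a chain of the type I interferon receptor, had 32.7 CPM in BL-41 and 88.7 in Namalwa, while its partner IFNAR1 had 102 CPM in BL-41 and 107 in Namalwa. JAK1, the kinase bound to that receptor, was higher in BL-41, with 205 CPM against 87.1 in Namalwa. The cytosolic DNA sensor CGAS had 6.81 CPM in BL-41 and 0.0447 in Namalwa, and its adaptor STING1 (TMEM173 in the files) had 2.64 CPM in BL-41 and 19.6 in Namalwa. The sensor and the adaptor thus differed in opposite directions.

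**Figure D2:**
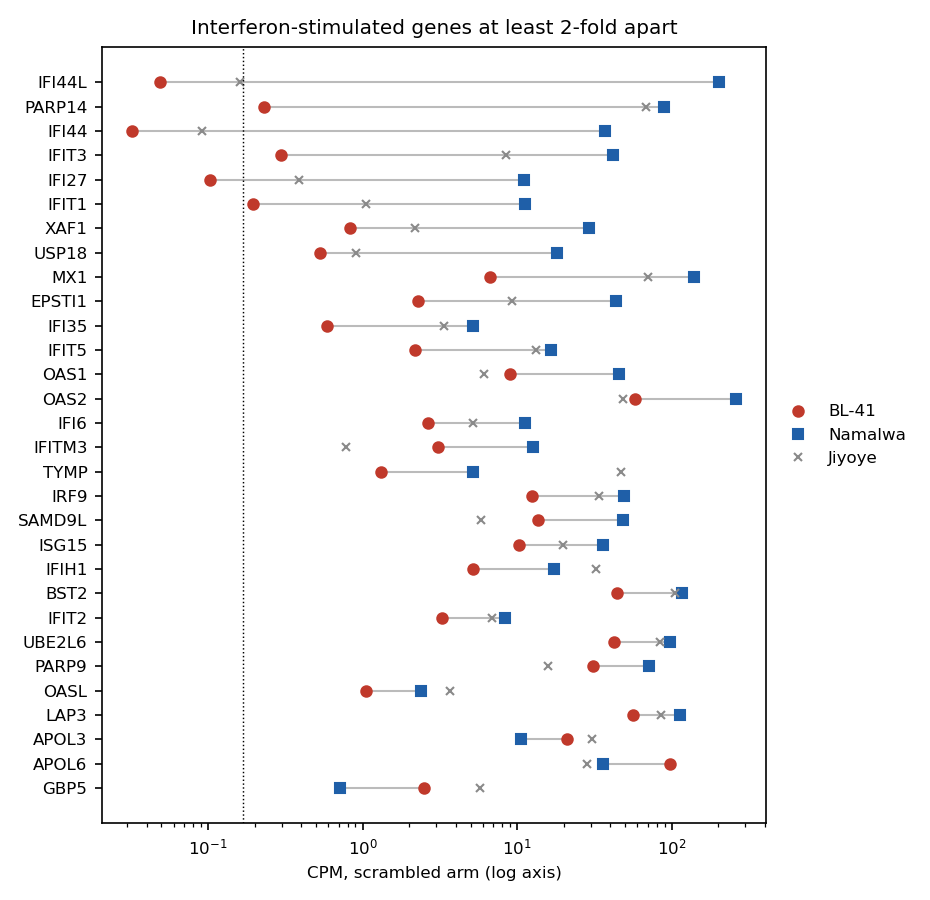
CPM in the scrambled arm (log axis) for the 30 interferon-stimulated genes at least 2-fold apart, with BL-41 as circles, Namalwa as squares and Jiyoye as crosses. The dotted line marks the BL-41 floor of 0.169 CPM. BL-41 lies left of Namalwa for 27 genes and right of it for APOL3, APOL6 and GBP5.

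The response element has the core letters GAAANNGAAA, and these were searched on both strands of the RefSeq promoters (GRCh38.p14, 250 bases before to 50 after each gene start). The core was present for 1192 of 27195 genes in the promoter table (4.38%) and for 386 of the 9494 compared genes that have a promoter there (4.07%). Of the 27 interferon-stimulated genes at least 2-fold higher in Namalwa, 23 have a promoter there, and the core was present for 16 of these (69.6%). Of the 23 other members of the list only 12 have a promoter there, and the core was present for 4 of these (33.3%). The list holds genes known for this element, so its share describes the list. Among all genes at least 2-fold higher in BL-41 the core was present for 52 of 1148 (4.53%), and among all those at least 2-fold higher in Namalwa for 59 of 1004 (5.88%). A match is a description of these letters and does not show binding.

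Windows of 30 bases are printed for 4 genes that were low in BL-41 and high in Namalwa, and for IFITM1, an interferon-induced membrane protein that has the core and was not lower in BL-41. They run 5′ to 3′ along the gene's strand, with the core, or its reverse complement where it lies on the opposite strand, in capitals.
IFI44L: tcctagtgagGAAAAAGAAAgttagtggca
PARP14: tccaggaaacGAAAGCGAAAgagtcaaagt
MX1: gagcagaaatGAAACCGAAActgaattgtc
IFIT3: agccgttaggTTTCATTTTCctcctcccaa
IFITM1: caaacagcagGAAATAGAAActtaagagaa
The window of IFI44L is at chr1:78620274-78620303, that of PARP14 at chr3:122680800-122680829, that of MX1 at chr21:41420559-41420588, that of IFIT3 at chr10:89327831-89327860 and that of IFITM1 at chr11:313990-314019, with MX1 the only one of these 5 windows whose core begins after the gene start. IFITM1 had 113 CPM in BL-41 and 62.7 in Namalwa. The core was thus present in genes that were lower in BL-41 and in genes that were not.

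Both lines expressed the genes that define B cells. CD79A and CD79B, the signalling chains of the B cell receptor, had 965 and 661 CPM in BL-41 and 625 and 589 in Namalwa. PAX5, the factor that commits cells to the B lineage, had 565 CPM in BL-41 and 449.7 in Namalwa. All 3 were within 2-fold. Of 39 measured B cell surface receptors, 10 were at least 2-fold higher in BL-41 and 1 at least 2-fold higher in Namalwa, with a median log2 difference of 0.20. In all 28.2% of that list was at least 2-fold apart, close to the 23.9% of all genes. That median was -0.09 in the FOXO3 shRNA arms, so the direction of the list as a whole did not hold there.

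MS4A1, which encodes the B cell surface protein CD20, differed more. It had 535 CPM in BL-41 and 6.85 in Namalwa, a log2 difference of 6.29 ± 0.31 (approximate standard error), and 242 in Jiyoye (chromosome 11, positions 60455847 to 60470752). In the FOXO3 shRNA arms the difference was 5.80. Namalwa was thus the line with little MS4A1 RNA. CD22, another surface protein of B cells, had 275 CPM in BL-41 and 67.3 in Namalwa. FCRL2 and FCRL1, Fc receptor-like proteins, had 8.92 and 9.28 CPM in BL-41 and 0.635 and 1.74 in Namalwa. The cytokine receptor chains IL21R and IL4R had 52.8 and 56.8 CPM in BL-41 and 17.9 and 19.3 in Namalwa. TNFRSF13B, the TACI receptor, was the 1 member at least 2-fold higher in Namalwa, with 12.7 CPM in BL-41 and 31.1 in Namalwa.

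B cell receptor signalling genes went in both directions. Of 28, 3 were at least 2-fold higher in BL-41 and 6 at least 2-fold higher in Namalwa, with a median of -0.01. Those at least 2-fold apart were 32.1% of the list, against 23.9% of all genes. The inhibitory co-receptor CD22 had 275 CPM in BL-41 and 67.3 in Namalwa, and the scaffold BANK1 had 21.2 CPM in BL-41 and 1.17 in Namalwa. The SRC-family kinase BLK had 73.8 CPM in BL-41 and 247 in Namalwa. IGLL1 and VPREB1 encode the surrogate light chain, which pre-B cells place on their surface before a light chain is made. IGLL1 had 20.9 CPM in BL-41 and 404 in Namalwa (chromosome 22, positions 23573125 to 23580290), a log2 difference of -4.27. VPREB1 had 21.4 CPM in BL-41 and 69.6 in Namalwa, and Jiyoye had 0.596 of IGLL1 and 0.0705 of VPREB1. IGLL5, which overlaps the lambda light chain locus and shares sequence with it, had 658 CPM in BL-41 and 2202 in Namalwa, and its reads may come in part from lambda chains.

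Of 27 measured germinal centre genes, 10 were at least 2-fold higher in BL-41 and 3 at least 2-fold higher in Namalwa. They made up 48.1% of the list, against 23.9% of all genes. The median of the list was 0.56 (0.18 in the FOXO3 shRNA arms). BCL6, the repressor that maintains the germinal centre state, had 160.1 CPM in BL-41 and 55.8 in Namalwa, with 3.97 in Jiyoye. CXCR5, the receptor for entry into follicles, had 11.9 CPM in BL-41 and 0.461 in Namalwa. HDAC9, a histone deacetylase, had 92.4 CPM in BL-41 and 2.16 in Namalwa, and A4GALT, the enzyme that makes the CD77 glycolipid of Burkitt cells, had 11.9 CPM in BL-41 and 0.0268 in Namalwa. S1PR2, which confines cells to the follicle, went the other way, with 37.4 CPM in BL-41 and 91.01 in Namalwa. MME, which encodes CD10, was alike, at 349 CPM in BL-41 and 361 in Namalwa.

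Of 31 B cell transcription factors, 8 were at least 2-fold higher in BL-41 and 3 at least 2-fold higher in Namalwa. These were 35.5% of the list, against 23.9% of all genes. The list median was 0.41 (0.01 in the FOXO3 shRNA arms). IKZF1 and IKZF2 encode related zinc finger factors and differed in opposite directions. IKZF1 had 149 CPM in BL-41 and 583 in Namalwa, and IKZF2 had 259 CPM in BL-41 and 69.3 in Namalwa. The inhibitors of E proteins also split. ID4 had 11.97 CPM in BL-41 and 0.0175 in Namalwa, at least 72.2-fold higher in BL-41, and ID1 had 3.200 CPM in BL-41 and 0.983 in Namalwa. ID3, a gene often mutated in Burkitt lymphoma, was at 50.8 CPM in BL-41 and 159 in Namalwa. Its partner TCF3 was at 1195 CPM in BL-41 and 1643 in Namalwa, within 2-fold. TCF7, a WNT-responsive factor better known from T cells, had 28.8 CPM in BL-41 and 5.97 in Namalwa.

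**Figure D3:**
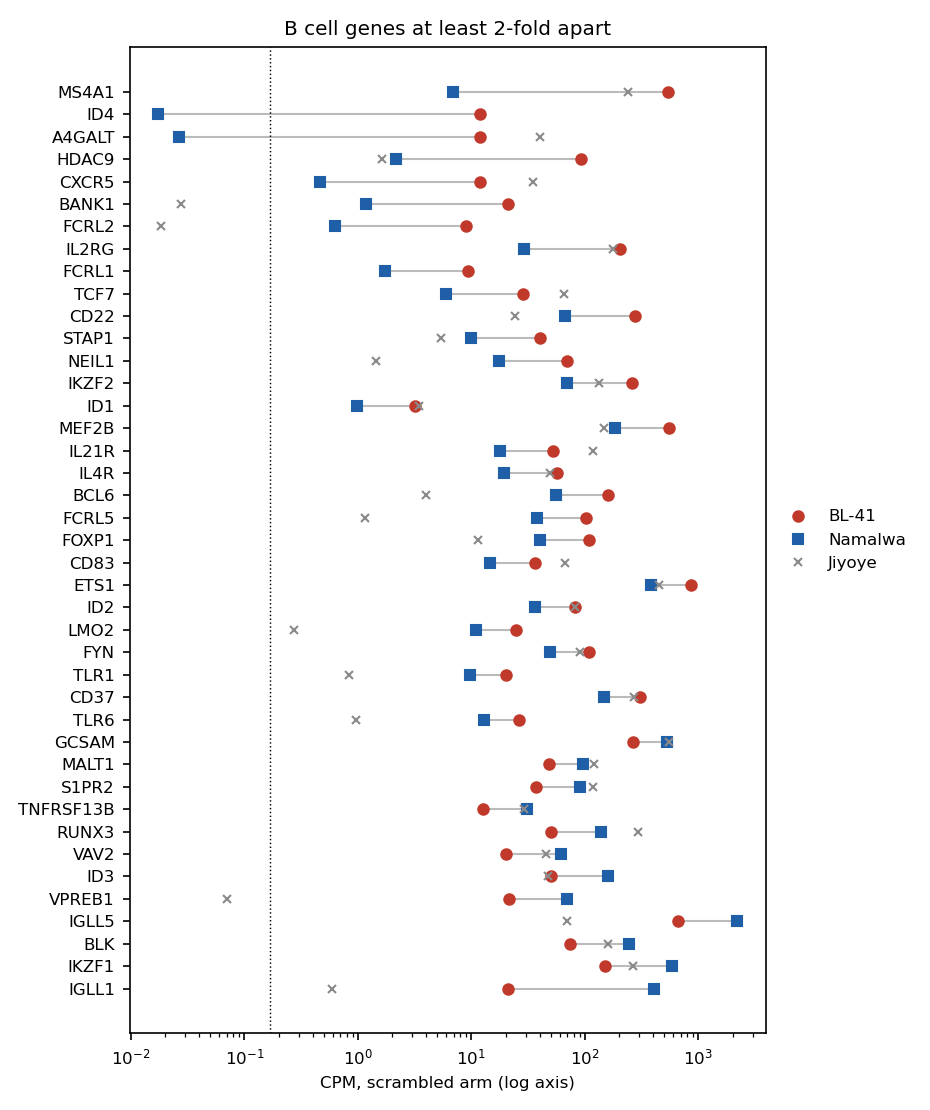
CPM in the scrambled arm (log axis) for the B cell surface, receptor signalling, germinal centre and transcription factor genes at least 2-fold apart with a mean of at least 2 CPM; BL-41 circles, Namalwa squares, Jiyoye crosses, and the dotted line is the BL-41 floor. Genes run down the page by their log2 difference, with values under the floor raised to it; MS4A1 is at the top and IGLL1 at the bottom, and ID4 and A4GALT, near the top, are under the floor in Namalwa, so their differences are lower bounds.

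Plasma cell genes showed no common direction, with 4 of 22 at least 2-fold higher in BL-41, 3 at least 2-fold higher in Namalwa and a median of 0.07. In all 31.8% of the list was at least 2-fold apart, against 23.9% of all genes. XBP1, the factor of the secretory programme, had 682 CPM in BL-41 and 266 in Namalwa. SDC1, which encodes CD138, had 4.22 CPM in BL-41 and 0.0885 in Namalwa. SLAMF7 had 0.5796 CPM in BL-41 and 4.66 CPM in Namalwa, and was highest in Jiyoye at 326.

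Genes that EBV latency proteins or NF-kB can induce were not uniformly higher in the line that carries the virus. Of 35 measured members, 14 were at least 2-fold higher in BL-41, the line without EBV, and 6 at least 2-fold higher in Namalwa. Together these were 57.1% of the list, against 23.9% of all genes. The median difference was 0.55, and 0.06 in the FOXO3 shRNA arms. The cytokine genes LTA and LTB had 14.5 and 15.3 CPM in BL-41 and 0.498 and 0.457 in Namalwa. The chemokine receptor CCR7 had 43.97 CPM in BL-41, 1.91 CPM in Namalwa and 566 CPM in Jiyoye. MARCKS had 7.61 CPM in BL-41, 0.0776 CPM in Namalwa and 267 CPM in Jiyoye. The feedback inhibitor TNFAIP3 had 26.6 CPM in BL-41, 7.47 CPM in Namalwa and 322 CPM in Jiyoye. For these genes Namalwa was the lowest of the 3 lines.

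The members higher in Namalwa included surface proteins of activated B cells. CD80, a ligand that costimulates T cells, had 0.487 CPM in BL-41 and 9.298 in Namalwa, and its relative CD86 went the other way, with 46.9 CPM in BL-41 and 3.78 in Namalwa. TNFRSF8, which encodes CD30, had 0.236 CPM in BL-41 and 3.35 in Namalwa, and FCER2, which encodes CD23, had 6.85 CPM in BL-41 and 68.3 in Namalwa. ICAM1 had 45.8 CPM in BL-41 and 94.2 in Namalwa. The NF-kB subunits and inhibitors were within 2-fold in 13 of 14 cases, with a median of 0.10, so 7.14% were at least 2-fold apart, against 23.9% of all genes. NFKBIA, the inhibitor that NF-kB itself induces, was the exception, with 61.4 CPM in BL-41 and 29.7 in Namalwa. The summed level of the inducible list was 1342 CPM in BL-41, 1038 CPM in Namalwa and 4872 CPM in Jiyoye.

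Genes of antigen presentation were at least 2-fold apart about as often as all genes (23.9%), at 26.3% of the class II list and 19.05% of the class I list. Of 19 class II genes, 3 were at least 2-fold higher in BL-41 and 2 at least 2-fold higher in Namalwa, and HLA-DRA had 749 CPM in BL-41 and 742 in Namalwa. The peptide-editing chains HLA-DMB and HLA-DOB were higher in BL-41, with 58.04 and 33.9 CPM in BL-41 and 15.9 and 3.997 in Namalwa. HLA-DRB5 had 6.74 CPM in BL-41 and 94.7 in Namalwa, and HLA-DRB3 had 70.9 CPM in BL-41 and 0.0629 in Namalwa. These genes and HLA-DQA2 have near-identical copies, and which of them a person carries varies, so their values depend on how reads were shared among copies and are uncertain. Of 21 class I genes, 1 was at least 2-fold higher in BL-41 and 3 at least 2-fold higher in Namalwa. NLRC5, the transactivator of class I genes, had 50.5 CPM in BL-41 and 149 in Namalwa, and the proteasome activator chains PSME1 and PSME2 had 109 and 85.9 in BL-41 and 224 and 223 in Namalwa. HLA-F had 11.7 CPM in BL-41 and 0.214 in Namalwa.

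MYC was lower in BL-41. It had 375 CPM in BL-41 and 1048 in Namalwa, a log2 difference of -1.48 ± 0.15 (approximate standard error), with 989 in Jiyoye. The other 10 measured members of its network, MAX, the MXD repressors and their relatives, were within 2-fold. With MYC, 9.09% of that list was at least 2-fold apart, against 23.9% of all genes. Of 35 nucleolar genes of ribosome biogenesis, many of them MYC targets, 28 lay below 0 and 2, NHP2 and POLR1A, were at least 2-fold higher in Namalwa. Their median was -0.34, and 5.71% of them were at least 2-fold apart, against 23.9% of all genes. Cytosolic ribosomal protein genes went the other way, with 71 of 77 above 0 and a median of 0.46, and they summed to 141229 CPM in BL-41 and 105127 in Namalwa. Of these genes 5.19% were at least 2-fold apart, again below the 23.9% of all genes. RPS29 had 512 CPM in BL-41 and 167 in Namalwa. RPS26, whose many processed copies make its count uncertain, had 203 CPM in BL-41 and 821 in Namalwa.

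Glycolytic genes were lower in BL-41, with 22 of 24 below 0 and a median of -0.59, although only 4 were at least 2-fold higher in Namalwa. Counted both ways, 25% of the list was at least 2-fold apart, near the 23.9% of all genes. The list summed to 11979 CPM in BL-41 and 17304 in Namalwa. The enolase ENO1 had 2023 CPM in BL-41 and 3885 in Namalwa, and the isoform ENO2, best known from neurons, had 2.05 CPM in BL-41 and 20.6 in Namalwa. The glucose transporter SLC2A3 and the lactate transporter SLC16A1 were the members at least 2-fold higher in BL-41, with 49.98 and 446 CPM in BL-41 and 12.6 and 197 in Namalwa. The directions of the ribosomal protein and glycolysis medians were the same under each scaling tried and in the FOXO3 shRNA arms.

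Genes of serine, glycine and amino acid supply were on balance higher in BL-41. Of 23, 5 were at least 2-fold higher in BL-41 and 3 at least 2-fold higher in Namalwa. Those apart by that much were 34.8% of the list, against 23.9% of all genes. The median was 0.66, but 0.08 in the FOXO3 shRNA arms. SHMT2 and MTHFD2, the mitochondrial enzymes that draw one-carbon units from serine, had 1452 and 998 CPM in BL-41 and 559 and 398 in Namalwa. The cystine transporter SLC7A11 had 147 CPM in BL-41 and 31.1 in Namalwa. CBS, which makes cystathionine from homocysteine and serine, had 0.0668 CPM in BL-41 and 79.9 in Namalwa (chromosome 21, positions 43053191 to 43076873), at least 474-fold lower in BL-41, with 44.4 in Jiyoye. CTH, the next enzyme on the route to cysteine, had 88.8 CPM in BL-41 and 51.2 in Namalwa, within 2-fold. GLUL, glutamine synthetase, had 0.0799 CPM in BL-41, 39.04 CPM in Namalwa and 101 CPM in Jiyoye. BL-41 was thus the line with almost no RNA for CBS and GLUL.

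Antioxidant genes split between the lines, with a median of -0.15. Of 25, 6 were at least 2-fold higher in BL-41 and 8 at least 2-fold higher in Namalwa. Together they were 56% of the list, against 23.9% of all genes. HMOX1, heme oxygenase 1, had 18.5 CPM in BL-41, 0.0253 CPM in Namalwa and 0.237 CPM in Jiyoye (chromosome 22, positions 35381096 to 35394207), at least 112-fold higher in BL-41 than in Namalwa. GPX7, a peroxidase of the endoplasmic reticulum, had 34.2 CPM in BL-41, 0.346 CPM in Namalwa and 0.1195 CPM in Jiyoye. BL-41 was the 1 line of the 3 with a level of HMOX1 or GPX7 above 1 CPM. Thioredoxin (TXN) had 50.1 CPM in BL-41 and 248 in Namalwa, and NQO1, a quinone reductase under NRF2 control, had 3.62 CPM in BL-41 and 11.1 in Namalwa. GSTM1, at 7.79 CPM in BL-41 and 22.7 in Namalwa, belongs to a family of near-identical copies.

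Of the cell death lists, 22.2% of the BCL2 family and 27.6% of caspases and death receptors were at least 2-fold apart, near the 23.9% of all genes. Of 18 BCL2 family genes, 2 were at least 2-fold higher in BL-41 and 2 at least 2-fold higher in Namalwa. BMF, a BH3-only activator of apoptosis, had 154 CPM in BL-41 and 44.6 in Namalwa, and BCL2, the anti-apoptotic founder, had 47.2 CPM in BL-41 and 103 in Namalwa. Of 29 caspases and death receptors, 4 were at least 2-fold higher in each line. TNFRSF10D, a decoy receptor for TRAIL, had 10.8 CPM in BL-41 and 0.00946 in Namalwa, at least 65.5-fold higher in BL-41. TNFRSF1B, which encodes TNF receptor 2, had 4.73 CPM in BL-41 and 177 in Namalwa, a log2 difference of -5.23. RIPK3 and MLKL act one after the other in necroptosis and went in opposite directions. RIPK3 had 2.34 CPM in BL-41 and 0.483 in Namalwa, and MLKL had 2.36 CPM in BL-41 and 19.03 in Namalwa.

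In the cell cycle list 2 of 21 genes were at least 2-fold higher in BL-41 and 6 at least 2-fold higher in Namalwa. That made 38.1% of the list, against 23.9% of all genes. CCND3 and CDK6, a cyclin and a kinase that act together in G1, had 106 and 84.1 CPM in BL-41 and 277 and 264 in Namalwa. The inhibitors CDKN2C and CDKN2A had 38.4 and 38.8 CPM in BL-41 and 153 and 87.4 in Namalwa, and CDKN1B had 49.7 CPM in BL-41 and 20.3 in Namalwa. Another inhibitor, CDKN1A, had 135 CPM in BL-41 and 115 in Namalwa.

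**Figure D4:**
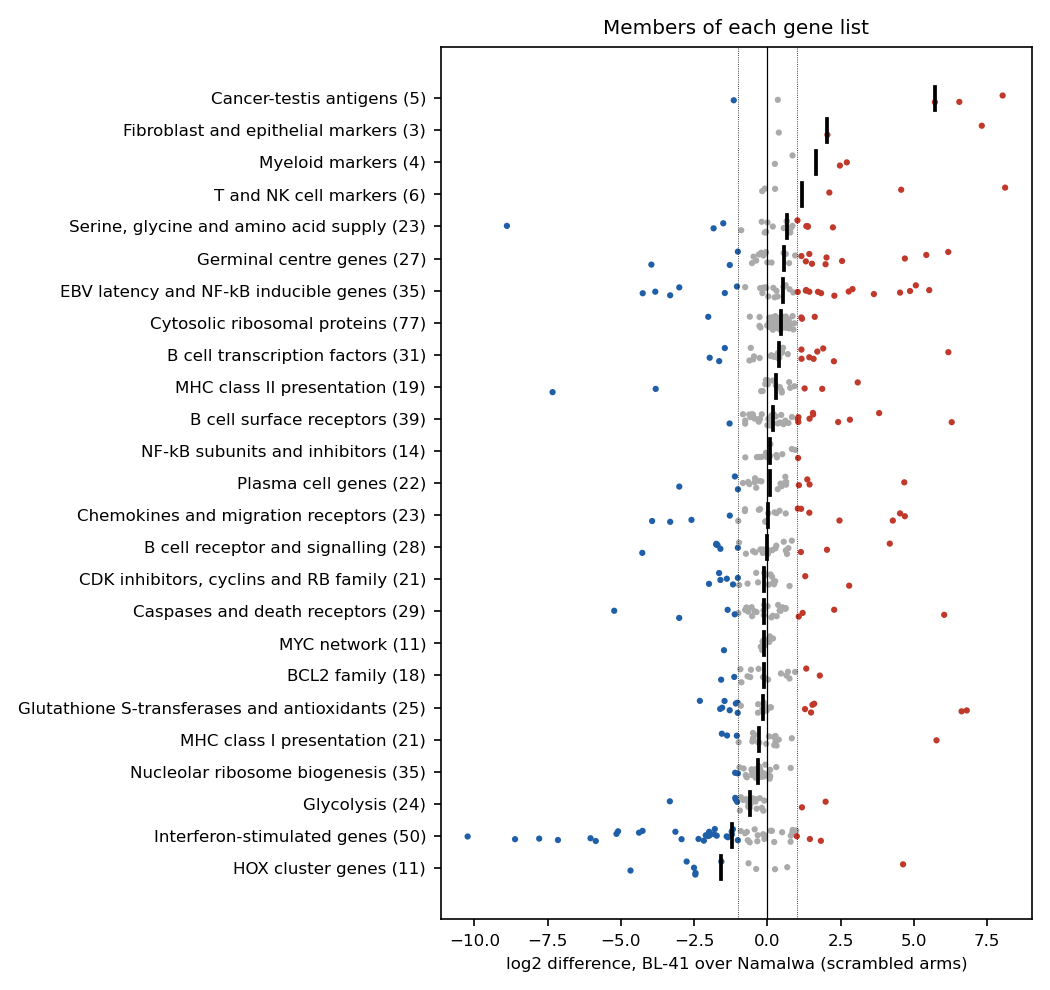
Log2 difference of BL-41 over Namalwa for the measured members of each gene list (1 point a gene, the number measured in brackets), with the median as a black bar and dotted lines at 2-fold. The medians lie within 2-fold for most lists. They lie at -1.19 for interferon-stimulated genes and -1.57 for the 11 HOX cluster genes, and on the other side at 5.71 for 5 cancer-testis antigens, 2.05 for 3 fibroblast and epithelial, 1.67 for 4 myeloid and 1.19 for 6 T and NK cell markers.

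A set of genes was expressed in 1 line and at or under the floor in the other. Of the genes at least 2-fold higher in BL-41, 199 were under the floor in Namalwa, and of those at least 2-fold higher in Namalwa, 103 were under the floor in BL-41. The 12 genes with the largest differences in each direction, ranked on the deposited values before any was raised to the floor, were all of this kind, so the ranking rests on values under the floor. Ranked on folds taken with the floor, genes such as TES, SPOCK2 and TUBB2B in BL-41 and EEF1A2, MYADM and RPP25 in Namalwa would come into the 12. SPOCK2 had 102 CPM in BL-41 and 0.208 in Namalwa, and TUBB2B had 85.7 CPM in BL-41 and 0.188 in Namalwa, both above the floor in each line.

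Among the 12 higher in BL-41, GYPC, the red cell membrane protein glycophorin C (chromosome 2, positions 126656158 to 126696667), had 102 CPM in BL-41 and 0.00891 in Namalwa, at least 615-fold higher in BL-41. TRIM44 and the ubiquitin ligase RNF130 had 117 and 68.1 CPM in BL-41 and 0.0627 and 0.0269 in Namalwa. ROBO1, a receptor for SLIT guidance proteins (chromosome 3, positions 78597239 to 79767998), had 65.6 CPM in BL-41 and 0.03396 in Namalwa. The phosphatase PTPN3 had 62.9 CPM in BL-41 and 0.03499 in Namalwa, and the kinase HIPK2 had 57.6 CPM in BL-41 and 0.03396 in Namalwa. KCNJ12, a potassium channel gene with a near-identical copy, had 126 CPM in BL-41 and 0.0184 in Namalwa and is uncertain. The others were LMCD1, ZNF518B, PLBD1, PNMA8A and SLC44A5, at between 20.4 CPM (SLC44A5) and 31.6 CPM (LMCD1) in BL-41. Jiyoye had 49.1 CPM of TRIM44 and 49.3 of SLC44A5, and 0.0399 of ROBO1, so it went with BL-41 for some of these genes and with Namalwa for others.

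Among the 12 higher in Namalwa, APP, the amyloid precursor protein (chromosome 21, positions 25880550 to 26171128), had 0.101 CPM in BL-41 and 215 in Namalwa, at least 1275-fold lower in BL-41. SLC35A4, of the nucleotide sugar transporter family, had 0.0723 CPM in BL-41 and 112 in Namalwa. The histone H3 lysine 4 demethylase KDM5B had 0.0269 CPM in BL-41 and 31.4 in Namalwa. RYR2, the calcium release channel of heart muscle, had 0.01802 CPM in BL-41 and 69.1 in Namalwa. S100A10, the partner of annexin A2, had 0.0253 CPM in BL-41 and 51.3 in Namalwa. Also among them were KCTD15, SLC25A13, CHST4 and DMXL2, besides CBS and IFI44L, given above. EEF1A2, a translation elongation factor of muscle and neurons that was chosen after its values were seen, had 0.299 CPM in BL-41, 330.3 CPM in Namalwa and 0.309 CPM in Jiyoye.

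Jiyoye sided with neither line over the genes that differed. Of the 1442 genes higher in BL-41 that have a Jiyoye value, 637 (44.2%) were nearer to Namalwa in Jiyoye, and of 1281 higher in Namalwa, 655 (51.1%) were. Each of these counts uses the arms that chose the genes, so it is a description.

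Genes with a row in only 1 of the tables were mostly weak. Leaving Y-linked genes aside, 1198 genes were listed only in the BL-41 table, of which 1022 were under the floor and 10 reached 10 CPM. In the Namalwa table alone were 575 genes, of which 515 were under the floor and 9 reached 10 CPM. The strongest autosomal ones, named after their values were seen, were TBC1D3L at 24.8 CPM, KIAA1549L at 16.95 and ALKBH3, a DNA and RNA demethylase, at 16.4 in BL-41, and GLB1L2 at 26.3, ZNF239 at 24.7 and CCL3L3 at 21.2 in Namalwa. TBC1D3L and CCL3L3 belong to families of near-identical copies and are uncertain. CEBPA, a myeloid transcription factor, was listed only in Namalwa, at 11.5 CPM.

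Markers of other cell types were low with some exceptions. Of the T and NK cell list, 3 of 6 measured genes (50%) were at least 2-fold higher in BL-41, against 12.6% of all genes. The list's members in both tables summed to 207.1 CPM in BL-41, 97.6 CPM in Namalwa and 102.8 CPM in Jiyoye. ZAP70, the kinase of the T cell receptor, had 49.3 CPM in BL-41 and 0.178 in Namalwa, and LCK, the SRC-family kinase that acts before it, had 73.1 CPM in BL-41 and 16.9 in Namalwa. The other 3 measured genes were within 2-fold. Of these IL7R had 66.1 CPM in BL-41 and 74.8 in Namalwa, most of the Namalwa sum. Its log2 difference was -0.18, and -0.99 in the FOXO3 shRNA arms. KLRD1 had 2.44 CPM in BL-41 and 2.04 in Namalwa. The defining T cell genes CD3E and CD3G were at 1.84 and 0.721 CPM in BL-41 and 0.05999 and 0.0767 in Namalwa. CD2 and CD8A were under the floor in both lines. Over its members in both tables, the myeloid list summed to 13.7 CPM in BL-41, 4.99 CPM in Namalwa and 32.2 CPM in Jiyoye. That sum leaves out CEBPA, at 11.5 CPM in Namalwa, and S100A9, both listed only there, and CSF3R and MPO, listed only in BL-41. It therefore does not show which line had more RNA of the list. The fibroblast and epithelial list summed to 553.2 CPM in BL-41, 5.78 CPM in Namalwa and 497.5 CPM in Jiyoye, nearly all of it VIM. VIM, the intermediate filament protein vimentin that lymphocytes also make, had 549 CPM in BL-41 and 3.45 in Namalwa, a log2 difference of 7.31 ± 0.20 (approximate standard error). COL1A1 was at 0.253 CPM in BL-41 and 0.297 in Namalwa.

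Germline and developmental genes differed in both directions. Of 31 genes listed as cancer-testis antigens, most of them normally active mainly in the testis, 12 were in both tables. Another 14 were listed only in the BL-41 table. Of the 5 measured in both, 3 were at least 2-fold higher in BL-41 and 1, MAGED1, at least 2-fold higher in Namalwa, with 71.8 CPM in BL-41 and 159 in Namalwa. With only 5 genes measured, 80% of the list was at least 2-fold apart, against 23.9% of all genes. The 12 genes in both tables summed to 174.7 CPM in BL-41, 185.1 CPM in Namalwa and 717.8 CPM in Jiyoye. MAGED1 made up 159 CPM of the Namalwa sum. The 14 genes listed only in the BL-41 table are left out, so the sums do not compare the whole list. MAGEA3 and MAGEA6, which are near-identical and therefore uncertain one by one, had 43.2 and 8.696 CPM in BL-41 and 0.0195 and 0.113 in Namalwa. SSX1 had 15.5 CPM in BL-41 and 0.02696 in Namalwa. HOX genes, which set position along the body axis, went the other way for the A cluster. Of 11 measured HOX genes, 6 were at least 2-fold higher in Namalwa and 1, HOXC11, at least 2-fold higher in BL-41. These made up 63.6% of the measured HOX genes, against 23.9% of all genes. HOXA3 had 1.096 CPM in BL-41 and 7.395 in Namalwa, and HOXA13 had 0.235 CPM in BL-41 and 5.97 in Namalwa.

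Chemokine and migration genes had a median of 0.03. Of 23, 7 were at least 2-fold higher in BL-41 and 4 at least 2-fold higher in Namalwa. They amount to 47.8% of the list, against 23.9% of all genes. S1PR1, the receptor by which lymphocytes leave lymphoid organs, had 12.9 CPM in BL-41 and 0.664 in Namalwa. ITGAM and ITGAX, integrin chains best known from myeloid cells, had 0.643 and 0.796 CPM in BL-41 and 6.41 and 4.796 in Namalwa. CXCR5 and CCR7, given above, belong to the same list and were higher in BL-41 too.

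Neighbouring genes shared a direction along parts of some chromosomes. The 8860 autosomal genes with a mean of at least 10 CPM were put in order of their RefSeq position on GRCh38.p14, and the median difference was taken in windows of 50 genes, moved by 10. Over the 789 windows the medians ran between -1.09 and 1.24, around a median of 0.01. Windows beyond 0.5 in size joined into 24 regions, 6 higher in BL-41 and 18 higher in Namalwa, which held 1871 genes, 21.1% of those placed. In this set of expressed genes 17.1% of 9158 were at least 2-fold apart (8.11% higher in BL-41 and 9% higher in Namalwa). Inside the regions 32.6% were at least 2-fold apart, and outside them 13.1%. The regions were chosen by these same differences, so the shares are a description. They held 40.0% of the 1522 placed genes that were at least 2-fold apart. HLA-DRB3 and HLA-DRB4 carried chromosome 6 positions starting at 3824508 and 3840427, far from HLA-DRB5 at 32517353. Their place in the order is therefore uncertain. Both fell within a region higher in BL-41, on chromosome 6 from 292487 to 26659746.

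The strongest region higher in Namalwa was on chromosome 8, from 406958 to 56074506, where 109 of 120 genes were lower in BL-41 and the median was -0.90 (-0.97 in the FOXO3 shRNA arms). Chromosome 7 was shifted along its whole length, with a median of -0.54 over 431 genes, 3.48% of them at least 2-fold higher in BL-41 and 19.7% at least 2-fold higher in Namalwa. Chromosome 1 had a region higher in BL-41, from 93149742 to 151170296, with a median of 0.73 over 140 genes, between regions higher in Namalwa on both sides. Chromosome 3 had neighbouring windows of opposite sign, with a median of 0.53 between 50347330 and 108694840 and of -0.66 between 99817862 and 133661941. These 2 spans overlap because each is the full extent of its windows, so the ends of a region are known only to within a window.

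Set against Jiyoye, where the median over all placed genes was 0.06 for BL-41 and 0.12 for Namalwa, the regions did not all belong to 1 line. The 3 differences share arms and are not independent. On chromosome 14, from 24216857 to 63543377, the median was 0.69 for BL-41 over Namalwa, -0.04 for BL-41 over Jiyoye and -0.88 for Namalwa over Jiyoye. In the chromosome 1 region higher in BL-41 it was 0.99 for BL-41 over Jiyoye and 0.24 for Namalwa over Jiyoye. In the chromosome 8 region it was -0.38 for BL-41 over Jiyoye and 0.49 for Namalwa over Jiyoye. Namalwa stood apart in the first of these, BL-41 in the second, and both lines differed from Jiyoye, in opposite directions, in the third.

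**Figure D5:**
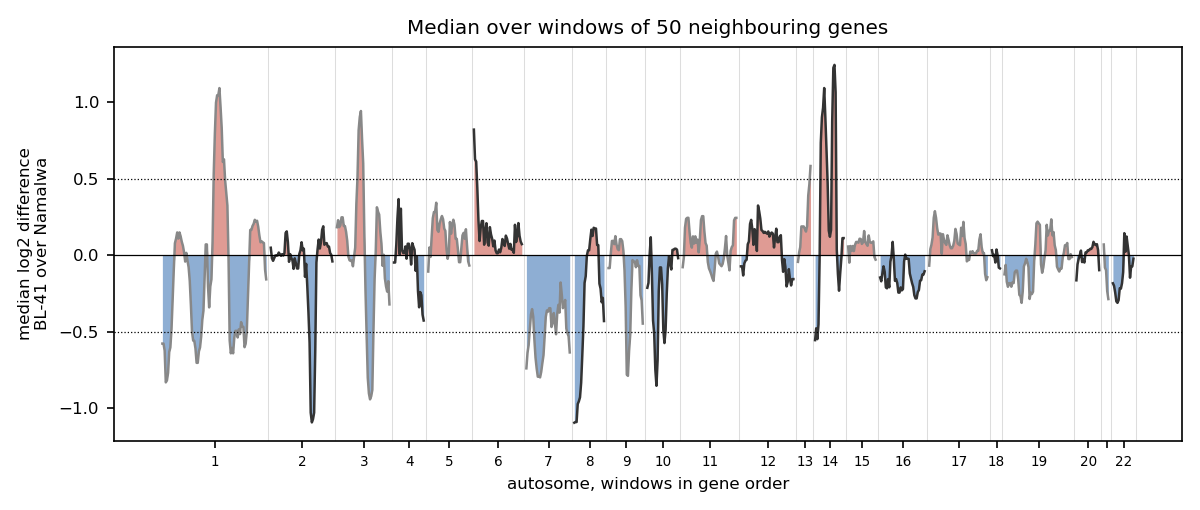
Median log2 difference of BL-41 over Namalwa in 789 windows of 50 neighbouring genes, in gene order along each autosome (21 lies between the labels 20 and 22), with dotted lines at 0.5 and -0.5. The peaks on chromosomes 1, 3 and 14 exceed 0.5, and chromosome 7 and the start of chromosome 8 lie below 0.

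Shorter runs were sought among the 11117 autosomal genes with a mean of at least 1 CPM, as 3 or more neighbours that were all at least 4-fold apart in the same direction. There were 10 such runs with 37 genes. The longest held 7 genes on chromosome 17, between 20999596 and 21551678, all higher in BL-41. USP22, a histone deubiquitinase of the SAGA complex, had 1720.1 CPM in BL-41 and 145 in Namalwa, with 284 in Jiyoye. The kinase gene MAP2K3 had 344 CPM in BL-41 and 64.1 in Namalwa, and DHRS7B, TMEM11, NATD1, KCNJ12 and C17orf51 completed the run. The USP22 difference was 3.57 on the log2 scale and 3.38 in the FOXO3 shRNA arms.

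Other runs joined genes already described. On chromosome 6, LTA, TNF, LTB and AIF1 were all higher in BL-41, and on chromosome 10, IFIT3, IFIT1, IFIT5 and PANK1 were all higher in Namalwa. On chromosome 1, THEM4, S100A10 and S100A11 were higher in Namalwa, and S100A11 had 0.135 CPM in BL-41 and 58.5 in Namalwa. On chromosome 11, SIAE, SPA17, NRGN and ESAM were higher in BL-41, and NRGN, a calmodulin-binding protein of neurons, had 65.8 CPM in BL-41 and 4.79 in Namalwa. The remaining runs had 3 genes each, on chromosomes 7, 14, 15 and 19.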

How the data were processed

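RNA-seq libraries of BL-41 and Namalwa cells carrying a scrambled shRNA were compared (3 libraries an arm). Per the series' design text and the submitters' processing notes, reads were filtered with SOAPnuke, mapped with Bowtie2 to hg38, quantified with RSEM and tested with DESeq2, and versions are not given in the sources used here. The authors deposited 1 table a line with 1 value for each arm, a signal on the scale of normalised counts per library. The log2 ratio of the arms matches the fold change in the deposited table to within 1.34e-14, so the arms of a line share the authors' fitted fold change. Genes with almost no reads had nearly equal values in both arms. GYPC in Namalwa, for example, was at 0.00891 CPM with scrambled shRNA and 0.00916 CPM with FOXO3 shRNA. A fold change shrunk towards 0 would give such values and would make the recovered standard errors too small. Whether it was shrunk was not tested. The authors' deposited p-values concern FOXO3 knockdown, and were used only to recover standard errors.

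Each scrambled column was scaled to a sum of 1000000 (CPM), genes were joined on their gene ID, and those with a mean over the lines of at least 1 CPM were compared (Python 3.11.15, pandas 2.3.3, numpy 2.4.6). At least 2-fold apart counts as different. Values under 3 normalised counts a library were raised to that floor for folds. The summed level of a list covers only its members with a row in both lines' tables. Positions came from RefSeq on GRCh38.p14, the build of the files, for 11491 of the 11504 genes (99.9%). Medians were taken per autosome and per window of 50 genes in place of the chromosome arms first planned, since no arm boundaries were used here. The fold rule and the scalings were tested on simulated data. The recovery of standard errors was checked only by inverting p-values made from a known error. That check held no low counts and no shrunk fold changes, so it cannot show how well the recovery works for them.

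The depth per library is unknown, since the columns are pooled arms. Members and the 27 gene lists were chosen with earlier results of these data known. Genes were named by rule: autosomal genes with the 12 largest differences in each direction at a mean of at least 10 CPM (ranked before values were raised to the floor), the 5 largest in each list at a mean of at least 2 CPM, and FOXO3. Others were chosen after their values were seen. XIST and Y-linked genes were left out, and some other genes and 1 of the lists are not reported here. Alternatives tried were 3 other scalings, 2 other filters, a pseudocount of 1, the FOXO3 shRNA arms, the mean of both arms, a 4-fold rule and, chosen after seeing the data, subtraction of the median of the 51 nearest autosomal genes.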

Additional observations from a re-analysis of the deposited data

How the results depend on the processing

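The deposited values are pooled arms, so no replicate could be left out. No paired analysis was possible because the columns carry no replicate numbers and no test was made. The count of genes at least 2-fold higher in BL-41, 1455, was 2642 with no filter on low values, 966 with a mean of at least 5 CPM and 678 at 4-fold. The count at least 2-fold higher in Namalwa, 1297, was 422 at 4-fold. Both counts stayed within 1.5 times under the other alternatives, at 1267 to 1548 for BL-41 and 935 to 1844 for Namalwa, the lowest Namalwa count coming after the local median was subtracted. The trimmed mean of log ratios gave 1548 genes higher in BL-41 and 1204 higher in Namalwa. In the FOXO3 shRNA arms the log2 differences of CASP10, 0.29, and ENO3, 0.13, had the opposite sign to those in the scrambled arms (-1.36 and -1.10); the cause was not tested. Over the 139 named genes and these alternatives, 968 values stayed within their approximate error and 281 moved by more. The 968 are no measure of stability. The 2 filters cannot change a gene's difference, so all 139 stayed under each. All 139 also stayed under each other scaling, where the median of ratios and the trimmed mean removed shifts of only -0.036 and -0.045. In the FOXO3 shRNA arms 39 stayed and 98 moved, and with a pseudocount of 1, 71 stayed and 68 moved. The 2 counted as reversed are those of CASP10 and ENO3, since only differences of at least 2-fold could be counted so. Smaller differences that changed sign are counted among the 281 or the 968. MXD1, for example, was at -0.23 in the scrambled arms and 0.44 in the FOXO3 shRNA arms. The interferon list's median was -0.86 after the local median was subtracted and stayed between -1.06 and -1.22 under the others. The B cell receptor list's median of -0.01 turned positive under other scalings, at 0.02 and 0.03, and at 0.18 after local subtraction. It was -0.33 in the FOXO3 shRNA arms. The median of the plasma cell list, 0.07, turned to -0.14 in the FOXO3 shRNA arms and -0.21 after local subtraction. Depth limits weakly expressed genes most, since values under the floor stand for fewer than 3 normalised counts a library.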

Other observations

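Several genes with strong expression in 1 line belong to no list above and were chosen after their values were seen. SKAP1, an adaptor of T cell integrin signalling, had 82.1 CPM in BL-41 and 0.333 in Namalwa. SWAP70, which B cells use in class switching and migration, had 235 CPM in BL-41, 16.9 CPM in Namalwa and 192 CPM in Jiyoye. SOX4, a transcription factor of early B cell development, had 175 CPM in BL-41 and 17.8 in Namalwa. TES, a focal adhesion protein, had 98.6 CPM in BL-41, 0.112 CPM in Namalwa and 94.7 CPM in Jiyoye.

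Higher in Namalwa were LILRB1, an inhibitory receptor for MHC class I, with 6.13 CPM in BL-41 and 103 in Namalwa, and LGR4, a receptor for R-spondins, with 0.178 CPM in BL-41 and 54.2 in Namalwa. The double-stranded RNA sensor EIF2AK2 had 11.5 CPM in BL-41 and 63.03 in Namalwa, and the RNA-editing enzyme ADAR had 319.6 CPM in BL-41 and 805 in Namalwa. Both are known interferon-inducible genes that were not in the list of interferon-stimulated genes used here. RPP25, a subunit of RNase P, had 0.144 CPM in BL-41, 109.7 CPM in Namalwa and 0.0865 CPM in Jiyoye.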
